A study of Mus musculus with 13 samples.

Results

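The genes described are the colony-stimulating factors, their receptors and the related pair Flt3l and Flt3. They were chosen by name, with earlier results of these data known. They comprise 5 ligand genes (Csf1, Il34, Csf2, Csf3 and Flt3l) and 5 receptor genes (Csf1r, Csf2ra, Csf2rb, Csf3r and Flt3), 10 of the 55353 gene symbols listed in the files, and all 10 were detected. Csf2rb2, a neighbouring copy of Csf2rb, is given beside it. Counts of unique molecular identifiers (UMIs) were read in barcodes with at least 1500 UMIs, which left 95563 cells.

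Csf1 (M-CSF) and Il34 are alternative ligands of the receptor tyrosine kinase Csf1r, on which monocytes and macrophages depend. Csf2 (GM-CSF) binds the ligand-specific chain Csf2ra, and signals through the common beta chain Csf2rb, a chain that also serves the receptors of Il3 and Il5 and acts through Jak2 and Stat5. In mice Csf2rb2 encodes a second beta chain used with the Il3 receptor. Csf3 (G-CSF) and its receptor Csf3r govern the output and mobilisation of neutrophils, and Flt3l acts through Flt3 on dendritic cell (DC) precursors and on conventional and plasmacytoid DCs. In the liver, Kupffer cells are the classical Csf1r-dependent resident macrophages.

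The libraries were made from livers of C57BL/6J mice, with the 10x Genomics droplet method, which sequences 3′ ends of transcripts in single cells. Mice received 3,5-diethoxycarbonyl-1,4-dihydrocollidine, abbreviated DDC, at 0.1% of the chow, a diet that causes cholangitis with a ductular reaction, and the control group (D0) received no DDC. The 12 atlas libraries comprise D0 as steady state (2 libraries), D3 and D5 as onset (4 libraries) and D9, D19 and D25 as progression (6 libraries), each day with 1 library per isolation protocol, and the library D19 B carries the day 18 in its label. A further library, STOP, comes from mice on the diet for 18 days followed by 7 days of recovery, and was made by protocol B. Both protocols mixed sorted cells at set ratios: protocol A took living singlets, retinoid-autofluorescent cells, Epcam+ and Pdpn+ cells, Cd45+ and Lyve-1+ cells, and cells with Cd31 but no Lyve-1, and protocol B took living cells of a stellate cell preparation with Cd45+ Itgax+ Cd64-, Epcam+ and Cd3e+ Lyve-1- cells. The gates therefore set how many cells of a type a library holds, and the tests compare levels within a cell type only. Levels are also ranked between cell types, without a test. Shares of a gene's UMIs by cell type follow the gated cell numbers and do not give its main source in the liver. The labels do not name the mouse or mice behind a library, so each test measures the spread between libraries, which may be technical.

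Cells fell into 68 clusters, built without the genes described here, and 45 clusters with 78293 cells received 1 of 19 names from marker genes. Names such as LSEC (the sinusoidal endothelium of the liver), BEC (the epithelium of the bile ducts), Kupffer cell, cDC1 and cDC2 (the conventional DC subsets) or pDC (plasmacytoid DC) stand for BEC-like, LSEC-like and so on, and the ending is left out below. None of the 10 genes is among the markers. Clusters led by Selp and Sele and by Rspo3, Cdh13 and Wnt9b stayed unnamed, and 8.17% (Il34) to 31.2% (Flt3) of the UMIs of a gene lay in unnamed cells. Libraries held 1541 to 14764 cells and 29307190 to 108602421 UMIs, and pairs of libraries shared at most 0.519% of the cell barcodes of the smaller one. Levels are CPM (counts scaled to a library total of 1e+06), taken on the UMIs summed over the cells of a class in a library with at least 20 such cells, and intervals for single libraries are exact 95% Poisson intervals, which cover counting error only. The UMIs come from 3′ ends and were not scaled by transcript length. A gene is called when the adjusted p of edgeR's quasi-likelihood test, with Benjamini-Hochberg adjustment over all genes of a class, is under 0.05.

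The D0 libraries differed from each other in several of these genes. In D0 B, Csf2rb was at 34.4 CPM in cDC1, 56.8 in cDC2 and 44.0 in classical monocytes, against 310.4, 351 and 272 CPM in D0 A, where these classes held 29, 23 and 49 cells. Csf2 went the other way, with 162 UMIs in 1471 T cells of D0 B and 1 UMI in 62 T cells of D0 A.

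Of the ligands, Csf1 was highest in neutrophils at 606 ± 219 CPM (SD, n = 11 libraries), followed by the stellate and fibroblast class at 151 ± 40.9 (n = 8), mesothelial cells at 133 ± 45.8 (n = 6), LSEC at 120 ± 35.6 (n = 12), large-vessel endothelial cells at 85.6 ± 27.1 (n = 9) and BEC at 55.7 ± 32 (n = 9). The lowest neutrophil library (303 CPM) lay above the highest stellate and fibroblast library (193 CPM), whereas the ranges of the stellate and fibroblast, mesothelial, LSEC and large-vessel classes overlapped. LSEC were the most numerous of these cells and held 30.2% of all Csf1 UMIs of the 13 libraries, against 15.02% in neutrophils. Free RNA, read in barcodes of 10 to 100 UMIs, held a median of 22.1 CPM of Csf1 over the 13 libraries, with a maximum of 94.8 CPM in D3 A, so that levels of this size in other classes cannot be told from background.

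Il34 came from structural cells. It was at 26.1 ± 22.9 CPM (n = 8) in the stellate and fibroblast class and 10.9 ± 4.09 CPM (n = 9) in BEC, with overlapping ranges, and at 6.22 ± 6.61 CPM (n = 6) in mesothelial cells. Over all 13 libraries, STOP included, the stellate and fibroblast class held 50.4% of its UMIs and BEC 32.1%. STOP gave 652 of the 1259 UMIs of the former and 25 of the 800 of the latter, and this order rests on STOP. Within the stellate and fibroblast class, the cluster led by Col1a1, the major fibrillar collagen, stood at 71.8 CPM, the cluster led by Colec11 at 45.0 CPM and the cluster led by Clec3b at 15.5 CPM. These values pool the atlas libraries, in which the class ranged from 6.08 to 77.6 CPM, and D0 A, at 28.2 CPM, gave 39.8% of the 618 cells of the Clec3b-led cluster, so that cluster and library cannot be told apart in them. Free RNA reached 3.96 CPM at most, and the shallow free RNA of D9 A and D25 A, with 112932 and 39263 UMIs of all genes, allows up to 26.6 and 76.4 CPM of a gene with 0 UMIs (3 counts).

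Csf2 was mainly lymphoid. Its mean was highest in gamma delta T17 cells (209 CPM over 5 libraries), a value set by D0 B with 869 CPM from 45 UMIs in 20 cells, and the other 4 libraries lay between 3.16 and 78.5 CPM. With at least 3000 UMIs per cell the NK and ILC1 class was highest instead, at 90.2 CPM. Natural killer (NK) cells and ILC1 followed at 57.6 ± 59.5 CPM (n = 12), BEC at 15.2 ± 26.1 (n = 9) and T cells at 11.3 ± 15.8 (n = 11), all with overlapping ranges. The BEC mean rests on D19 A (81.3 CPM, nearly all from 1 cell) and was 6.96 ± 8.91 CPM without it, below T cells. By number of UMIs over the 13 libraries, the NK and ILC1 class held the most Csf2 (37.4%), followed by BEC (21.6%). Within the NK and ILC1 class, the clusters led by Xcl1 and Cd7 (146 CPM) and by Gzmc and Klrb1a (84.0 CPM) stood beside the cluster led by the NK receptor genes Klra4 and Klra8 (6.59 CPM). Within T cells, the cluster led by Il4, Tceal3, Cd40lg and Trgv2 held 170 of 324 UMIs at 91.8 CPM, against 1.78 to 11.4 CPM in the other 4 T cell clusters. These cluster values pool libraries, and D0 B, where Csf2 was high in both classes, gave 97.7% of the cells of the Xcl1-led cluster and 95.5% of those of the Il4-led cluster, so that cluster and library cannot be told apart in them.

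Csf3 and Flt3l were sparse. Csf3 reached 14.7 ± 13.4 CPM (n = 5) in lymphatic endothelial cells, 4.39 ± 11.5 CPM (n = 9) in large-vessel endothelial cells and 3.78 ± 5.86 CPM (n = 9) in BEC, with 993 UMIs in all 13 libraries together. The means of the latter 2 classes rest on D25 B, and without it they were 0.562 ± 0.635 CPM in large-vessel endothelial cells and 1.94 ± 2.14 CPM in BEC, in the opposite order. Flt3l was at 16.5 ± 14.3 CPM (n = 12) in NK cells and ILC1, 12.2 ± 15.2 (n = 5) in gamma delta T17 cells, 8.99 ± 6.89 (n = 11) in T cells and 7.51 ± 4.54 (n = 8) in the stellate and fibroblast class. The spread of the libraries does not separate these 4 classes.

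The receptors were largely myeloid. Csf1r stood at 1047 ± 201 CPM (n = 12) in Kupffer cells, 778 ± 140 (n = 12) in macrophages, 567 ± 85.2 (n = 11) in classical monocytes and 259 ± 121 (n = 12) in cDC2, and each of these classes overlapped with its neighbour in this order. cDC1 (31.5 CPM) and pDC (3.50 CPM) lay below the median of free RNA (113 CPM). Csf2ra was highest in classical monocytes (312 ± 49.9 CPM, n = 11) and neutrophils (303 ± 59.2, n = 11), then in macrophages (261 ± 36.7, n = 12), cDC2 (235 ± 40.1, n = 12), Kupffer cells (171 ± 30.8, n = 12) and cDC1 (168 ± 36.1, n = 12), and again neighbours overlapped. Csf2rb was highest in neutrophils (392 ± 151 CPM, n = 11) and lay between 199 and 268 CPM on average in mature DC, monocytes, cDC1, pDC, cDC2, macrophages and Kupffer cells. pDC thus had Csf2rb at 210 ± 80.3 CPM (n = 8) and Csf2ra, the chain specific to GM-CSF, at 31.3 CPM, where free RNA had a median of 78.3 CPM of Csf2ra.

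Csf3r was the most restricted receptor. It stood at 1187 ± 521 CPM (n = 11) in neutrophils and 81.8 ± 26.9 (n = 11) in classical monocytes, and the lowest neutrophil library (501 CPM) exceeded the highest monocyte library (128 CPM). Flt3 was highest in cDC1 (202 ± 49.5 CPM, n = 12), mature DC (171 ± 47.5, n = 9), pDC (130 ± 54.8, n = 8) and cDC2 (118 ± 45.3, n = 12), which overlapped, and stood at 15.6 ± 13.9 CPM (n = 11) in classical monocytes.

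**Figure D1:**
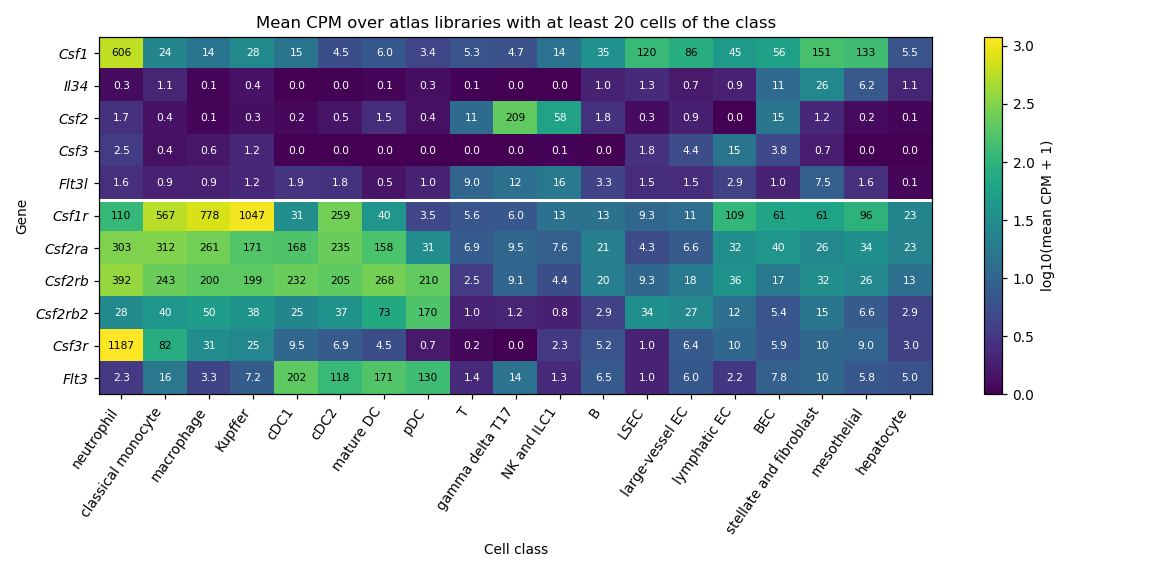
Mean CPM of each gene (rows; ligands above the white line, receptors and Csf2rb2 below it) in each of the 19 named cell classes (columns), over the atlas libraries with at least 20 cells of the class; colour is log10 of the mean CPM plus 1 and the number in each cell is the mean CPM. The highest values are 606 for Csf1 and 1187 for Csf3r, both in neutrophils, and 1047 for Csf1r in Kupffer cells.

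Shares of cells were read with every cell thinned to 1500 UMIs and pooled over the atlas libraries. Csf3r was found in 74.4% of 4035 thinned neutrophils (86.4% unthinned, at a median of 2363 UMIs per cell) and in 0% of 375 hepatocytes, which should lack it (1.6% unthinned, at a median of 5841 UMIs). Csf1r was found in 66.3% of thinned Kupffer cells (87.2% unthinned, median 7948 UMIs) and 1.07% of hepatocytes (6.4% unthinned). It was also found in 8.92% of BEC (35.1% unthinned), 7.74% of mesothelial cells (20.1%), 1.94% of LSEC (5.03%) and 0.682% of T cells (1.80%). D25 B gave 220 of the 375 hepatocytes, and their share sets no upper limit for classes outside the myeloid cells. Flt3 was found in 21.7% of thinned cDC1 (74.5% unthinned, median 11569 UMIs) and 0.8% of hepatocytes (2.67% unthinned). Csf1 was found in 38.4% of thinned neutrophils (45.9% unthinned), 19.6% of stellate and fibroblast cells (60.4% unthinned, median 8769.5 UMIs) and 15.4% of LSEC (35.4% unthinned, median 4337 UMIs), and in 0% of hepatocytes (4.27% unthinned).

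The genes most like each of the 10 genes over the 19 classes were found by Pearson's r of the mean log2(CPM + 1), a description over classes that share libraries. The 3 genes most like Csf1r were Fcgr4 (r = 0.951), an Fc receptor, Wfdc17 (0.949) and Lyz2 (0.947), the lysozyme of myeloid cells. For Csf2ra they included Spi1 (0.958), which encodes the myeloid transcription factor PU.1, and Cd300c2 (0.939). For Csf2rb they were Pirb (0.974), Nfam1 (0.941) and Ogfrl1 (0.940), for Csf3r Clec4d (0.968), C5ar1 (0.960), the receptor of complement C5a, and Hcar2 (0.951), and for Flt3 Ryr1 (0.877), Tnni2 (0.873) and Rnase6 (0.860). Among the ligands, Csf2 was most like the T cell receptor constant genes Trdc (0.935), Trgc1 (0.922) and Trgc2 (0.919), Il34 like Fgfr2 (0.977), Tmem45a (0.949) and Hspb2 (0.949), Csf1 like Mbnl2 (0.864), Tnrc18 (0.859) and Atrn (0.856), Csf3 like Mall (0.909), Mfsd4a (0.889) and Nts (0.845), and Flt3l like Nlrc3 (0.828), Usp36 (0.826) and Bcl2 (0.825). Each was compared with 7023 genes.

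Promoters were read because Csf2ra and Spi1 were so alike over the classes. RefSeq sequences of GRCm38.p6, from 250 bases before to 50 bases after the start of each gene, were at hand for 7 of the 11 genes (Csf1, Csf2, Flt3l, Csf2ra, Csf2rb2, Csf3r and Flt3). The purine-rich sequence GAGGAAG, of the kind that PU.1 binds, was searched on both strands after the sequences had been seen, and is marked in capitals, with its reverse complement CTTCCTC marked likewise. It occurred in 3 of the 7 promoters, which are printed, and not in those of Flt3, Csf1, Csf2 and Flt3l, and in 13.6% of all 32851 promoters of this length. In Csf2ra it began 14 and 8 bases before the start (chr19:61228369-61228668, minus strand), and these copies overlap by 1 base. In Csf2rb2 its reverse complement lay at 168 bases before and 28 bases after the start (chr15:78305672-78305971, minus strand), and in Csf3r it began 86 bases before the start (chr4:126024409-126024708, plus strand). A match describes the letters and is not a measured binding site.
Csf2ra: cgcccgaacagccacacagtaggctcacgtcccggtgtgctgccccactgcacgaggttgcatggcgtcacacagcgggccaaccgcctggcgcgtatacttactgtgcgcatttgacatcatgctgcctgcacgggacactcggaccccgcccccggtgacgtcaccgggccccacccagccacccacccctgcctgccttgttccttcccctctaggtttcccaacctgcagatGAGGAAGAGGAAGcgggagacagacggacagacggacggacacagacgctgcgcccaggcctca
Csf2rb2: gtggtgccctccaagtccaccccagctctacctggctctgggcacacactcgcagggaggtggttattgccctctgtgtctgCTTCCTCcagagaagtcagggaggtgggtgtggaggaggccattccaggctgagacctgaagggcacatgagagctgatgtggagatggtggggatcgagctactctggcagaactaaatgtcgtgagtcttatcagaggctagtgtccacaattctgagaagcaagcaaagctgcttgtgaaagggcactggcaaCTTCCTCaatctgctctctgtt
Csf3r: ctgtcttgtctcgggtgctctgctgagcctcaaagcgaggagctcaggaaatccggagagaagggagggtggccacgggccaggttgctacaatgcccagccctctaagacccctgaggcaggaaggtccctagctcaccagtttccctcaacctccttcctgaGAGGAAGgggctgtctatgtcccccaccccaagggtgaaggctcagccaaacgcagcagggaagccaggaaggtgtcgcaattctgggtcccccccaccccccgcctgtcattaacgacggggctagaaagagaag

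For the diet, DDC libraries (onset and progression averaged) were compared with steady state, and progression with onset, with the isolation protocol as a term, in 13 classes. For DDC against steady state, 4 of 80 tests of the 10 genes were called, 3 higher and 1 lower, and 20 of 80 (25%) reached p under 0.05 before adjustment, against 17.5% of the tests over all genes. Over all genes and the same classes, 2.82% of tests were called, 1.16% higher and 1.67% lower. For progression against onset, none of 80 tests was called by edgeR although 15 (18.75%) had a p under 0.05 before adjustment, against 7.38% over all genes, 2 were called by DESeq2, and 0.0637% of the tests over all genes were called. Each call is described below with the gene it concerns. Statements that libraries of a stage lay above, below or apart from those of another are descriptions. The share of all genes that did so was not counted, and such a split is less rare where 1 library is the whole steady state.

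Csf1 was called higher in cDC1, the DC subset that cross-presents antigen, upon DDC diet. It was at 3.23 CPM in D0 A (1 UMI in 29 cells) and 1.24 CPM in D0 B (12 UMIs in 1176 cells). At onset it was at 23.2 (D3 A), 6.89 (D3 B), 17.5 (D5 A) and 7.72 CPM (D5 B), and during progression the 6 libraries lay between 4.70 and 47.3 CPM. All 10 DDC libraries lay above both D0 libraries (log2 fold change 2.53, SE 0.67, adjusted p = 0.038), in a class where 4.72% of all genes were called and 1 of 7 members was. Leaving out D0 B took the adjusted p to 0.44 and leaving out D3 A, D5 A or D5 B to 0.052, 0.053 or 0.063, and within protocol A and protocol B it was 0.26 and 0.096. The 11 neutrophil markers summed to 1436 and 130 CPM in cDC1 of D0 A and D0 B, 66.0 to 284 CPM at onset and 141 to 3325 CPM during progression, with 3 to 9 of the 11 detected in an atlas library, and their part in the result was not tested. Few cells carried the UMIs, as 59 of 98 UMIs of D9 B lay in 1 cell. Doublet calls made up 17 of 36 cells with a UMI in D5 A, 10 of 19 in D9 A and 5 of 9 in D0 B, but 0 of 11 in D19 B and 0 of 4 in D3 B. Free RNA held 66.8 CPM of Csf1 in D0 A, 20.4 in D0 B and up to 94.8 CPM (D3 A) in DDC libraries. It lay above cDC1 in each library but D5 B, D9 B and D25 A, and its 0 UMIs in D25 A allow up to 76.4 CPM. Csf1 in cDC1 thus cannot be told from background in most libraries.

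In neutrophils, Csf1 stood at 303 CPM in D0 A and 321 CPM in D0 B and at 503 to 1008 CPM in the 9 DDC libraries, without overlap between the groups. The test did not call it (log2 fold change 1.05, SE 0.39, adjusted p = 0.24). Csf3r in the same cells was at 2066 CPM (D0 A) and 980 CPM (D0 B), at 2028, 1588 and 884.5 CPM at onset (D3 A, D5 A and D5 B), and at 1364, 992, 1046, 593, 1011 and 501 CPM in D9 A, D9 B, D19 A, D19 B, D25 A and D25 B. For progression against onset the log2 fold change was -0.75 (SE 0.30, unadjusted p = 0.024, adjusted p = 0.31). On each day with both libraries, protocol B lay below protocol A.

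The 2 neutrophil clusters differed in both genes. The cluster led by Siglecf and Clec5a had Csf1 at 752 CPM over all cells and the cluster led by Retnlg and Cstdc4 at 454 CPM. In the 3 atlas libraries with at least 20 cells of both, Csf1 was at 1549 against 629 CPM (D9 A), 642 against 235 CPM (D19 A) and 821 against 256 CPM (D25 A). Csf3r had the opposite order, with 1054 against 1455, 914 against 1377 and 882 against 1246 CPM. The clusters were defined on the same cells, so these are descriptions. D0 A, D0 B, D3 A and D5 A held mainly Retnlg-led cells (76.8% to 97.0% of neutrophils), and D5 B, D9 B, D19 B and D25 B mainly Siglecf-led cells (91.8% to 96.7%), so that the makeup of the class moved with day and protocol beside the levels above. The part of this makeup in them was not tested. Within the Retnlg-led cluster, Csf1 was at 293 CPM (D0 A) and 324 CPM (D0 B), 806 and 469 CPM at onset (D3 A and D5 A) and 629, 235 and 256 CPM in D9 A, D19 A and D25 A.

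**Figure D2:**
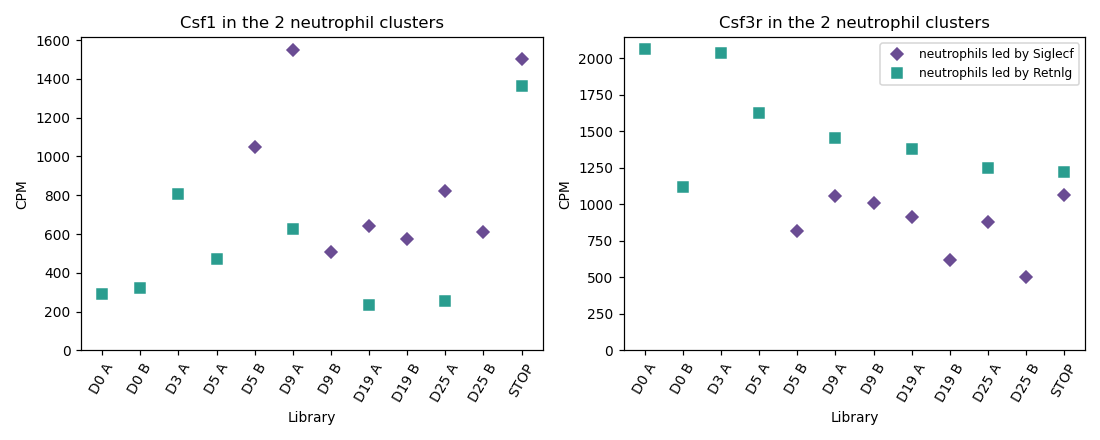
CPM of Csf1 (left) and Csf3r (right) in the Siglecf-led and the Retnlg-led neutrophil cluster, by library, with 1 point for each library with at least 20 cells of the cluster. In D9 A, D19 A and D25 A, Csf1 lies higher in Siglecf-led cells and Csf3r lies higher in Retnlg-led cells.

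In structural cells Csf1 differed by class. BEC of D0 A lay largely in another cluster than those of the DDC libraries, as D0 A gave 92.9% of the 675 cells of the BEC cluster led by Ces1d and Ddit4l and holds 784 BEC, and this holds for each contrast of BEC here. In BEC it was at 22.0 CPM in D0 A, the only steady-state library with at least 20 BEC, at 31.8 (D3 B) and 40.9 CPM (D5 B) at onset, and between 36.0 and 129 CPM in the 6 progression libraries, with a median of 58.4. All 8 DDC libraries lay above D0 A (log2 fold change 1.56, SE 0.59, adjusted p = 0.19), without a call in the main fit. Over the alternatives the change was 1.55 to 1.85, and a part of them called it higher. In LSEC Csf1 was at 175 and 155 CPM in D0 A and D0 B, 138, 141, 121 and 126 CPM in D3 A, D3 B, D5 A and D5 B, and between 57.5 and 156 CPM during progression, with a median of 92.5 (log2 fold change -0.44, SE 0.28, adjusted p = 0.57), and 8 of 10 DDC libraries lay below both D0 libraries. In the stellate and fibroblast class it was at 169 CPM in D0 A and between 87.5 and 193 CPM in 7 DDC libraries (adjusted p = 0.87), which lay on both sides of D0 A.

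Il34 in BEC stood at 4.48 CPM in D0 A and was above that in 8 of 8 DDC libraries, with 7.53 and 16.6 CPM at onset and 6.26 to 14.5 CPM during progression (log2 fold change 1.12, SE 0.55, adjusted p = 0.28). In the stellate and fibroblast class it was at 28.2 CPM in D0 A and ranged from 6.08 CPM (1 UMI in 20 cells of D19 B) to 77.6 CPM (407 UMIs in 364 cells of D25 B), and no call was made (adjusted p = 0.76).

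Csf2 fell in T cells upon DDC diet, a call that rested on 1 library. It was at 47.6 CPM in D0 B and 5.00 CPM in D0 A (1 UMI). At onset it was at 36.6 (D3 A, 5 UMIs), 5.16 (D3 B), 10.9 (D5 A, 1 UMI) and 3.15 CPM (D5 B), and during progression at 0 in D9 A and D25 A, which hold 33 and 64 cells and allow up to 27.6 and 15.6 CPM, and at 3.60, 3.05 and 8.77 CPM in D9 B, D19 B and D25 B. The log2 fold change was -3.04 (SE 0.54, adjusted p = 0.0064), with 1 of 6 members called in T cells and 1.26% of all genes called. The T cells of D0 B also lay in part in another cluster than those of the DDC libraries, since D0 B gave 95.5% of the 793 cells of the Il4-led cluster named above. Without D0 B the log2 fold change was 1.46 (adjusted p = 0.79), and DESeq2 gave -2.17 (adjusted p = 0.23). The 10 NK and ILC1 markers summed to 440 to 537 CPM in this class at steady state, 198 to 331 CPM at onset and 251 to 364 CPM during progression, and those of gamma delta T17 cells to 25.0 to 26.5, 7.33 to 87.5 and 0 to 31.2 CPM. Their part in the result was not tested. Free RNA held 11.6, 15.4, 22.4 and 80.1 CPM of Csf2 in D3 B, D9 B, D19 B and D25 B, above T cells there. In D0 B and D5 B it held 15.3 and 2.88 CPM, below T cells, and in D0 A, D3 A and D5 A 0 to 1.002 CPM.

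In NK cells and ILC1, Csf2 ranged from 2.25 CPM (D0 A) and 92.8 CPM (D0 B) at steady state through 30.1, 69.0, 191 and 34.7 CPM at onset to 107, 52.0 and 112 CPM in D9 B, D19 B and D25 B. D9 A, D19 A and D25 A had 0 UMIs in 59, 22 and 21 cells. The groups overlapped fully (log2 fold change 0.66, SE 0.76, adjusted p = 0.81).

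In BEC, Csf2 was seen only from D5 on among libraries with at least 20 BEC. There were 0 UMIs in 784 BEC of D0 A, which allows up to 0.292 CPM, and 0 in 119 BEC of D3 B. D5 B held 19 UMIs in 7 cells (3.94 CPM), D9 A 33 UMIs in 6 cells (1.95 CPM) and D9 B 24 UMIs in 3 cells (4.29 CPM). D19 A held 77 UMIs, 74 of them in 1 of its 73 cells, D19 B 191 UMIs in 19 of 431 cells (25.5 CPM), D25 A 106 UMIs in 29 of 1304 cells (4.74 CPM) and D25 B 125 UMIs in 30 of 432 cells (15.3 CPM). These UMIs thus lay in few cells with many each, as in D19 B where 1 cell held 56. Free RNA of D0 A, D3 A, D5 A and D19 A held 0 to 1.002 CPM of Csf2, and the 0 UMIs in that of D9 A and D25 A allow up to 26.6 and 76.4 CPM, above BEC there. In D3 B, D9 B and D25 B it held 11.6, 15.4 and 80.1 CPM, above BEC of these libraries, and in D5 B and D19 B 2.88 and 22.4 CPM, a little below BEC. T cell markers summed to 15.6 CPM in BEC of D0 A, 139 to 186 CPM at onset and 10.6 to 254 CPM during progression, and their part in the result was not tested. The test of DDC against D0 A gave an adjusted p of 0.25.

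The BEC with Csf2 and Csf3 were mostly of 1 cluster. The cluster led by the neutrophil-attracting chemokine gene Cxcl5 and by Wfdc18 and Ankrd1 held 2109 of the 5255 atlas BEC. It held 76 of 96 cells with a UMI of Csf2 and 79 of 104 with a UMI of Csf3 among atlas BEC, with 510 of 575 and 304 of 380 UMIs. It had Csf1 at 92.9 CPM and Il34 at 16.8 CPM. Csf3 in BEC was at 0.487 CPM in D0 A (5 UMIs), 0 in D3 B and D5 B, and 4.13, 0.537, 2.11, 2.40, 5.85 and 18.5 CPM in D9 A, D9 B, D19 A, D19 B, D25 A and D25 B, and the 0 in D3 B and D5 B allow up to 0.982 and 0.622 CPM. Of the 6 progression libraries 5 lay above these limits, with 2 UMIs behind the value of D19 A, and D9 B (3 UMIs) did not. Free RNA held 8.85 and 25.5 CPM of Csf3 in D9 A and D25 A (1 UMI each), above BEC there. Its 0 UMIs in D9 B and D19 B allow up to 15.4 and 3.73 CPM, also above BEC. In D19 A and D25 B free RNA held 0.669 and 1.41 CPM, below BEC. The 11 neutrophil markers in BEC summed to 273 CPM in D0 A, 36.0 to 72.4 CPM at onset and 22.7 to 620 CPM during progression, and their part was not tested. The unadjusted p of progression against onset was 0.011 and the adjusted p 0.87. In D25 B, Csf3 was also at 34.999 CPM in large-vessel endothelial cells (9 UMIs in 30 cells) and 19.9 CPM in LSEC (23 UMIs in 157 cells), where LSEC of the other atlas libraries had 0 to 0.523 CPM and the 0 in D0 B, D3 B, D5 B, D9 B and D19 B allow up to 1.26 to 5.80 CPM.

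Flt3l in T cells stood at 5.00 CPM (1 UMI) and 22.4 CPM at D0 and at 0 to 18.8 CPM in 9 DDC libraries (log2 fold change -1.34, SE 0.44, adjusted p = 0.13), and the groups overlapped.

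**Figure D3:**
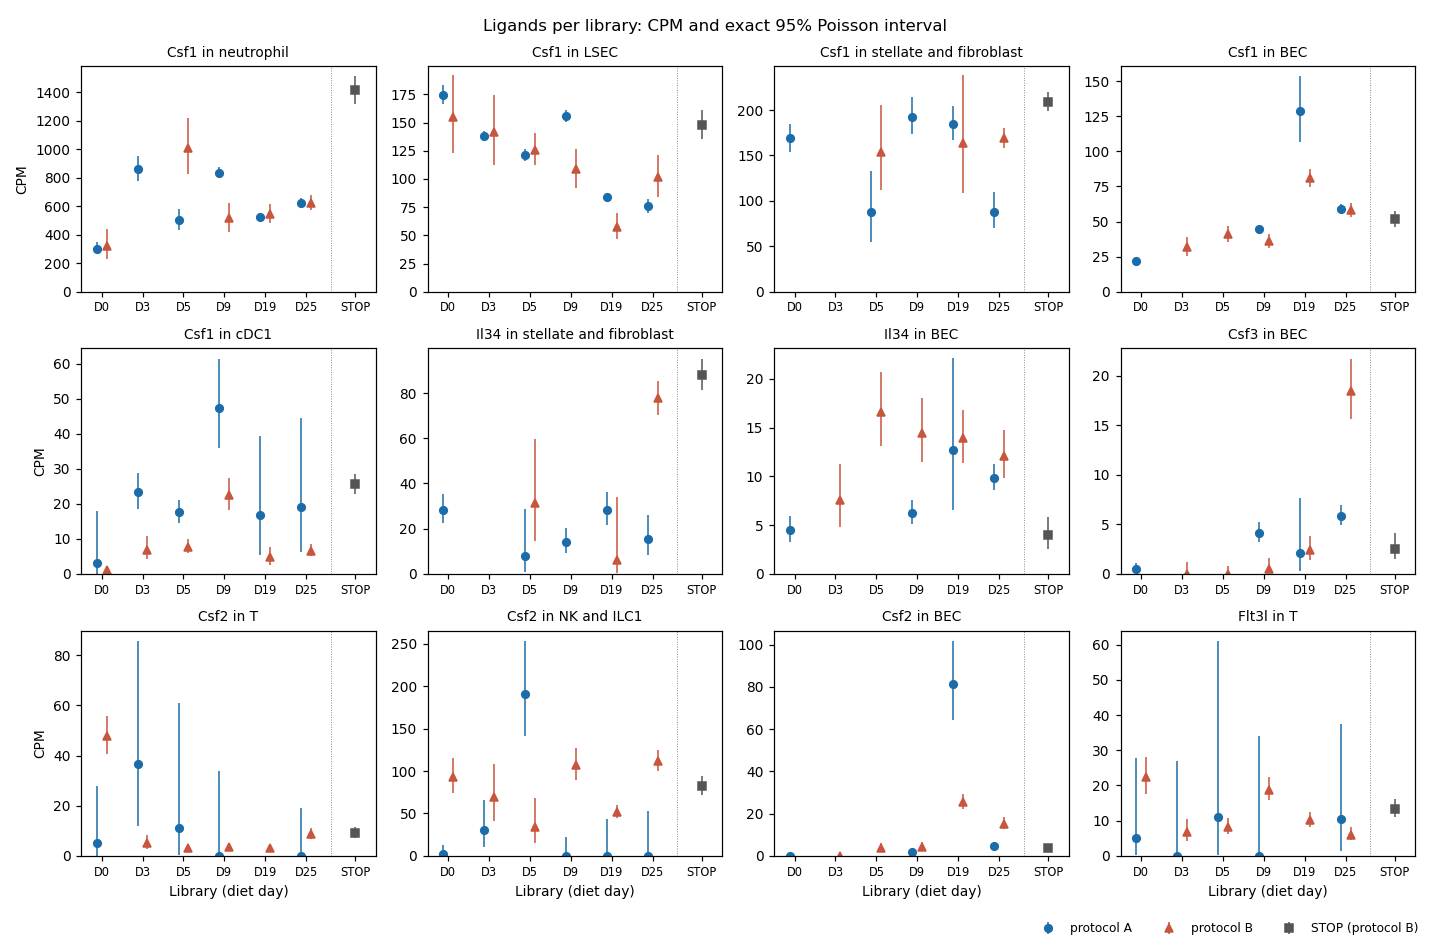
CPM of the ligand genes in 12 gene and class pairs, by library from D0 to D25 and for STOP, with blue circles for protocol A, red triangles for protocol B and grey squares for STOP; bars are exact 95% Poisson intervals, each panel has its own linear axis from 0, and only libraries with at least 20 cells of the class are drawn. Csf1 in neutrophils lies at 303 and 321 CPM at D0 and at or above 503 CPM in every later library, and Csf2 in BEC is at 0 in D0 A and D3 B.

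Among the receptors, the common beta chain Csf2rb had a positive log2 fold change in 12 of 12 classes for DDC against steady state, with a median of 0.90, an unadjusted p under 0.05 in 7 classes and a call in 1. Free RNA held a median of 41.4 CPM of Csf2rb. In D19 B it held 42.3 CPM, above LSEC (20.2 CPM) and BEC (12.3 CPM). A positive change of Csf2rb in such low classes cannot be told from background. Flt3 had a positive change in 8 of 8 classes, with a median of 1.33 and a maximum of 6.66, an unadjusted p under 0.05 in 2 classes and a call in 1. Outside cDC1, cDC2, mature DC and pDC, Flt3 was found in at most 4.74% of the cells of a class (unthinned). Free RNA held a median of 32.3 CPM of Flt3, so that low levels in these classes cannot be told from background. How many of all genes had the same sign in every class was not counted. The classes come from the same libraries and are not independent. In pDC, Csf2rb rose from 63.7 CPM in D0 B (687 cells) to 158 (D3 B), 166 (D5 A), 189 (D5 B), 296 (D9 A), 283 (D9 B), 277 (D19 B) and 246 CPM (D25 B), and all 7 DDC libraries lay above D0 B (log2 fold change 1.496, SE 0.29, adjusted p = 0.0036). D0 A, left out of the test with 18 pDC, had 27 UMIs at 309 CPM, so that the call rests on D0 B as the only steady-state library. The 10 macrophage markers in pDC summed to 28.9 CPM in D0 B, 25.9 to 106 CPM at onset and 54.9 to 274 CPM during progression, and their part in the result was not tested. The share of all genes called in pDC was 17.9%, and 2 of 5 members were called. Progression exceeded onset in pDC without overlap, but not past the threshold (log2 fold change 0.61, adjusted p = 0.42).

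In macrophages Csf2rb was at 116 and 145 CPM in D0 A and D0 B, 169, 143, 192 and 161 CPM in D3 A, D3 B, D5 A and D5 B, and 186 to 323 CPM during progression, with a median of 219. In Kupffer cells it was at 112 and 143 CPM at D0, 114, 91.9, 149 and 205 CPM at onset and 191 to 328 CPM during progression, with a median of 258. The progression libraries of both classes lay above both D0 libraries, and in Kupffer cells only D9 A lay below D5 B. The adjusted p was 0.097 in macrophages (log2 fold change 0.87, SE 0.28) and 0.16 in Kupffer cells (0.83, SE 0.31), and for progression against onset in Kupffer cells 0.12 (0.89, SE 0.22), where DESeq2 gave 0.030. In cDC1 and cDC2 the D0 libraries themselves spanned 34.4 to 310.4 and 56.8 to 351 CPM, and no call was made (adjusted p = 0.35 and 0.60).

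Csf2rb2 rose in LSEC upon DDC diet. Csf2rb and Csf2rb2 are neighbours on chromosome 15 (78325800 to 78351001 and 78282507 to 78305721, GRCm38), and 28.0% of the 31-base words of Csf2rb transcripts also occur in Csf2rb2, but only 6 of 470 in the last 500 bases, from which 3′ reads mostly come, so reads of the pair can be split in part. In LSEC, Csf2rb2 was at 1.57 CPM in D0 A (15 UMIs in 2963 cells) and 0 in D0 B (221 cells, which allows up to 5.80 CPM). It was at 6.55, 11.6, 15.8 and 19.4 CPM in D3 A, D3 B, D5 A and D5 B, then at 16.5 and 42.8 CPM at D9, 70.8 and 77.8 CPM at D19 and 53.7 and 96.2 CPM at D25. All 10 DDC libraries lay above both D0 libraries (log2 fold change 4.22, SE 0.77, adjusted p = 0.040), in a class where 0.245% of all genes were called. Free RNA held 4.65 to 43.5 CPM of Csf2rb2 in the 12 atlas libraries, from 1 to 65 UMIs. LSEC lay below it in D0 A, D0 B, D3 A, D5 A and D9 A and above it in D3 B, D5 B, D9 B and the 4 libraries of D19 and D25.

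Csf2rb in LSEC was at 1.36 and 5.80 CPM (3 UMIs) at D0, 2.36 to 10.54 CPM at onset and 8.28 to 20.2 CPM during progression (progression against onset, log2 fold change 1.82, SE 0.43, adjusted p = 0.17). Csf2rb2 made up 63.8% to 86.7% of the UMIs of the pair in LSEC during progression (median 80.4%), against medians of 21.5% in macrophages, 17.7% in Kupffer cells, 22.7% in BEC, 9.65% in cDC1, 8.31% in neutrophils and 44.0% in pDC. During progression the highest shares in single libraries were 47.3% in pDC, 43.75% in BEC, 24.5% in macrophages and 19.7% in Kupffer cells. A high share was not particular to LSEC. Large-vessel endothelial cells of D19 B held 33 UMIs of Csf2rb2 and 15 of Csf2rb. Over the atlas libraries 9.49% of large-vessel endothelial cells held Csf2rb2 and 5.90% Csf2rb, against 9.35% and 3.31% of LSEC (unthinned). Macrophage markers in LSEC summed to 106 to 149 CPM at steady state, 101 to 281 CPM at onset and 295 to 771 CPM during progression, with 9 or 10 of 10 detected in each progression library, and their part in the result was not tested. The LSEC cluster led by Rasd1 and Ednrb had 72.4 CPM of Csf2rb2, against 2.42 to 22.0 CPM in the other 4 LSEC clusters, over pooled libraries. D19 A gave 75.1% of the 2004 cells of this cluster, and D0 A gave 95.1% of the 2337 cells of the cluster with 2.42 CPM, led by Serpina1e and Mup11. LSEC of steady state and of DDC libraries thus lay largely in different clusters, and cluster and library cannot be told apart in these values. The call in LSEC was lost within each protocol (adjusted p = 0.065 in A and 0.083 in B), at 3000 UMIs per cell (0.058) and without any 1 of D0 A, D3 A, D3 B, D5 A, D19 A or D25 A (0.055 to 0.15). The log2 fold change was 3.78 to 4.41 in each alternative that held D0 A. It was 8.53 within protocol B and 11.23 without D0 A, where D0 B with 0 UMIs is the whole steady state and the value is no bound.

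Csf2rb2 was also called higher in macrophages, BEC and pDC. In macrophages it was at 24.4 and 28.9 CPM at D0, 43.0, 43.9, 49.0 and 35.3 CPM at onset and 56.9 to 78.8 CPM during progression, 3 groups that did not overlap (log2 fold change 1.28, SE 0.28, adjusted p = 0.024, with 3.81% of all genes called). Without D0 A the log2 fold change was 0.89. Over the 7 alternatives with all or part of the libraries it ranged from 0.82 to 1.61, and not all of them kept the call. In BEC it was at 0.389 CPM in D0 A (4 UMIs) and 3.53 to 8.51 CPM in 8 DDC libraries (3.94, SE 0.76, adjusted p = 0.045, with 1.01% of all genes called), and the call was lost without any 1 of the D9, D19 and D25 libraries (0.052 to 0.098). The macrophage markers in BEC summed to 472 CPM in D0 A and 789 to 1571 CPM in DDC libraries, and their part was not tested. Free RNA held 4.65 CPM of Csf2rb2 in D0 A and 9.25 to 43.5 CPM in the 8 DDC libraries (1 to 65 UMIs), more than BEC in each of the 9, so that Csf2rb2 in BEC cannot be told from background. In pDC it was at 56.9 CPM in D0 B and 130 to 254 CPM in 7 DDC libraries (1.45, SE 0.29, adjusted p = 0.0050), and D0 A, not in the test, had 12 UMIs in 18 cells, at 137 CPM.

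**Figure D4:**
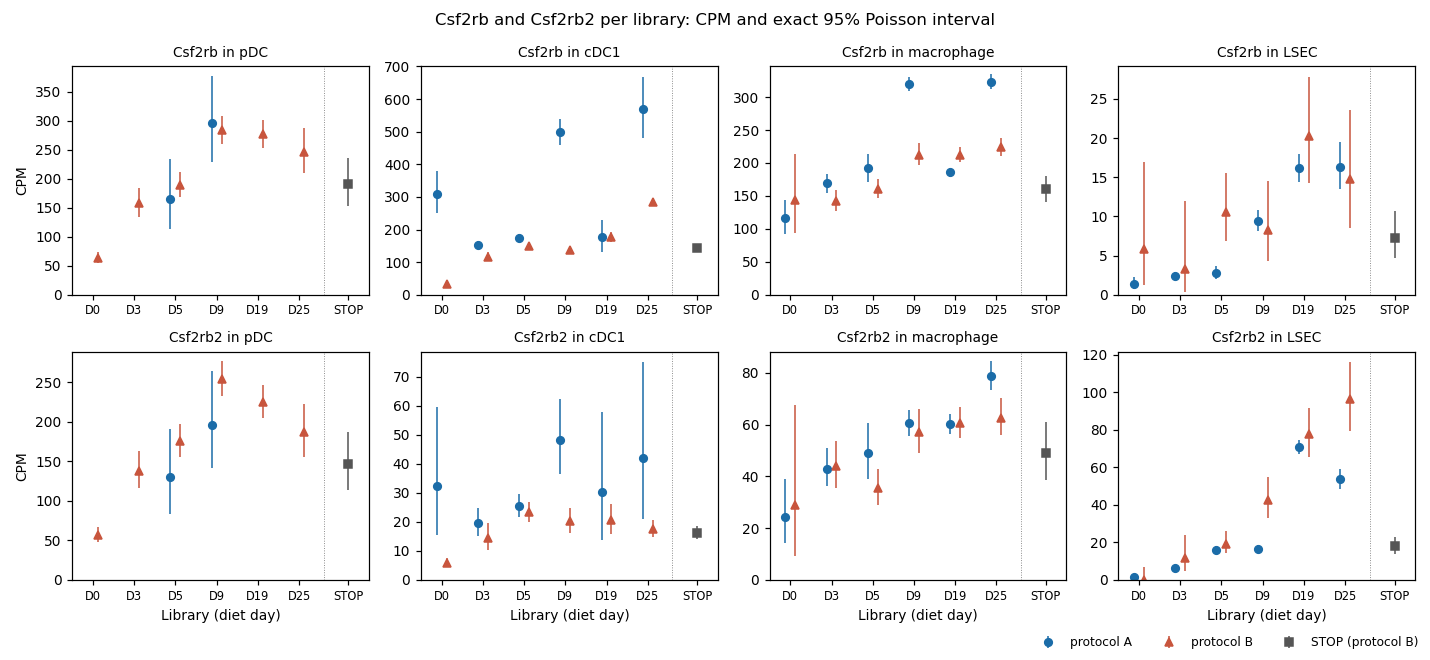
CPM of Csf2rb (upper row) and Csf2rb2 (lower row) in pDC, cDC1, macrophages and LSEC, by library and protocol as labelled; bars are exact 95% Poisson intervals, and axes are linear from 0 and set for each panel. Csf2rb2 in LSEC lies at 0 to 1.57 CPM at D0, at 53.7 to 96.2 CPM at D19 and D25 and at 17.998 CPM in STOP.

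Csf2ra, the partner chain of Csf2rb for GM-CSF, gave no call in the main fits. Its log2 fold change for DDC against steady state was negative in 10 of 12 classes, with a median of -0.33. In cDC1 it was at 236 and 209 CPM at D0 and 120 to 152 CPM at onset, and at 154 to 214 CPM during progression (log2 fold change -0.72, SE 0.21, adjusted p = 0.059), where 9 of 10 DDC libraries lay below both D0 libraries. The change was -0.97 to -0.46 over the alternatives and -0.99 to -0.38 with 1 library left out, and a part of these fits called it lower. In neutrophils Csf2ra was at 342 and 436 CPM at D0 and 228 to 345 CPM in 9 DDC libraries, and no call was made (-0.60, SE 0.28, adjusted p = 0.36).

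Csf1r showed no call in any class. In Kupffer cells it was at 1580 and 1227 CPM at D0, 1104, 811, 1040 and 893 CPM at onset and 877 to 1060 CPM during progression, and 8 of 10 DDC libraries lay below both D0 libraries after TMM scaling (log2 fold change -0.33, SE 0.21, adjusted p = 0.44). In macrophages it was at 1159 (D0 A) and 613 CPM (D0 B) and at 658 to 871 CPM in 10 DDC libraries, all between the D0 values (-0.04, SE 0.19, adjusted p = 0.95). Classical monocytes spanned 396 to 678 CPM over 11 libraries (0.30, SE 0.26, adjusted p = 0.79).

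Flt3 rose in pDC. It was at 62.6 CPM in D0 B, at 98.1, 77.7 and 109 CPM in D3 B, D5 A and D5 B and at 137, 218, 195 and 146 CPM in D9 A, D9 B, D19 B and D25 B, so that progression and onset did not overlap (DDC against steady state, log2 fold change 0.89, SE 0.28, adjusted p = 0.038). After TMM scaling 6 of 7 DDC libraries lay above D0 B. D0 A, with 18 pDC and not in the test, had 183 CPM. DESeq2 gave an adjusted p of 0.076, removing doublet calls 0.066, and leaving out D5 B, D9 B or D19 B 0.074, 0.092 or 0.108. In cDC2 Flt3 was at 94.5 CPM in D0 A (23 cells) and 42.7 CPM in D0 B and at 85.0 to 203 CPM in 10 DDC libraries, which overlapped with D0 A on this scale (1.13, SE 0.32, adjusted p = 0.067). D0 B, with 1021 cDC2, gave 91.1% of the 1030 cells of the cDC2 cluster led by Ly6i, Mgl2 and Clec4b1, so cDC2 of D0 B lay largely in another cluster than those of the DDC libraries, and cluster and library cannot be told apart in any contrast of cDC2 here. In cDC1 it was at 288 and 94.5 CPM at D0 and between these values in all 10 DDC libraries (0.14, SE 0.26, adjusted p = 0.81).

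**Figure D5:**
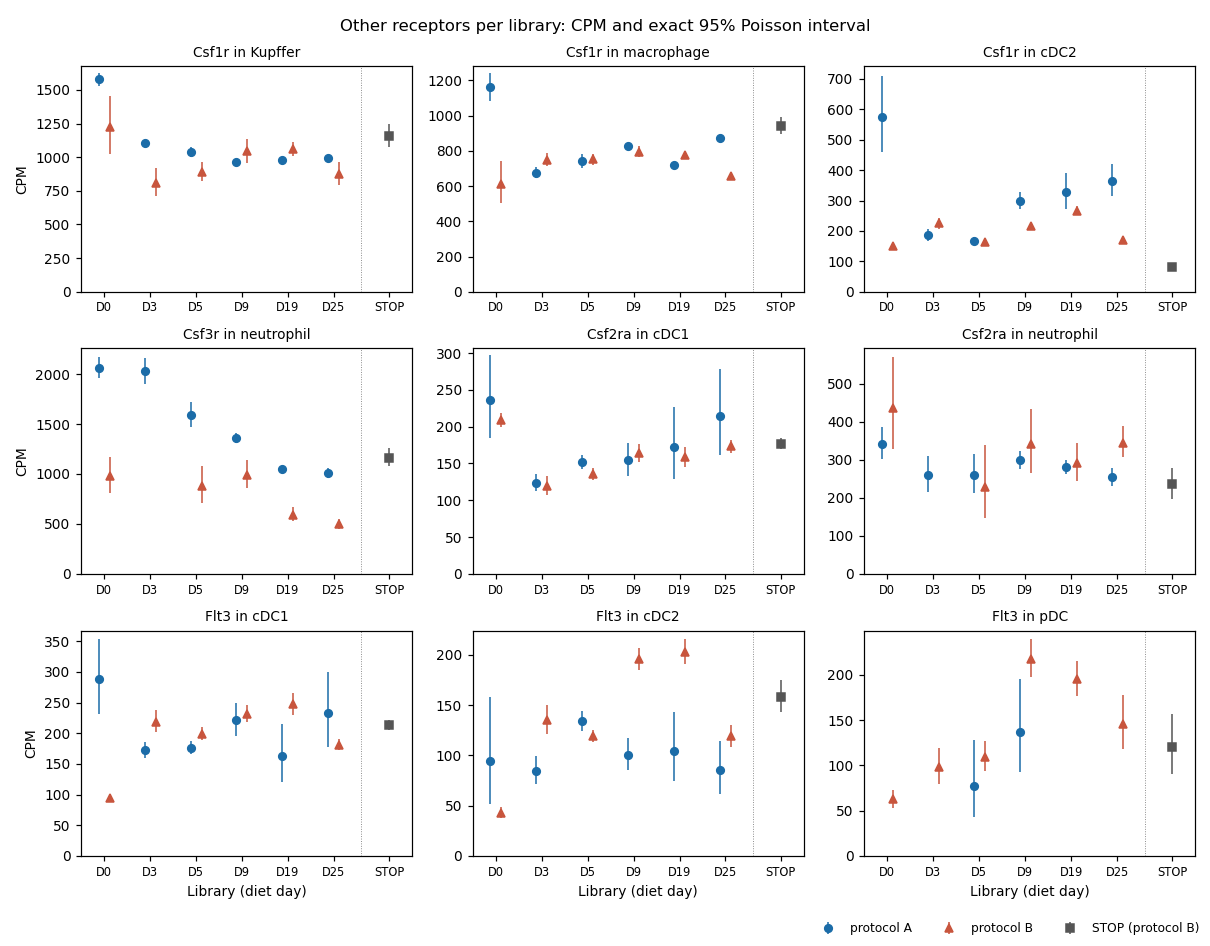
CPM of Csf1r, Csf3r, Csf2ra and Flt3 in 9 gene and class pairs, by library and protocol as labelled; bars are exact 95% Poisson intervals, and axes are linear from 0 and set for each panel. Csf3r in neutrophils goes from 2066 CPM (D0 A) to 1011 CPM (D25 A) in protocol A and from 980 to 501 CPM in protocol B.

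Of 44 further genes of these pathways, 41 were tested, and 28 of 471 tests were called for DDC against steady state (18 higher, 10 lower), with a median log2 fold change of 0.10 against 0.01 over all genes, where 2.82% of tests were called. Of the 28 calls, 12 were in pDC, with D0 B as the only steady-state library and 17.9% of all genes called. None of 471 was called for progression against onset by edgeR, with 52 at an unadjusted p under 0.05, and DESeq2 counts for this list were not made. By role, the STAT factors and their targets had 6 tests higher and 3 lower of 101, the negative regulators 3 higher and 4 lower of 97, the lineage factors 3 lower of 73, the adaptors and kinases 2 higher of 129, and the other receptors 5 higher of 35, of which 4 are the calls of Csf2rb2 above. Stat5a, which fell in BEC, was higher in pDC (log2 fold change 1.59). Bcl2l1 was higher in macrophages too (1.12, adjusted p = 0.022), beside Kupffer cells.

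Socs1, a feedback inhibitor of Jak kinases, fell in pDC (log2 fold change -2.40, adjusted p = 0.00027), mature DC (-2.24, 0.022), macrophages (-2.92, 0.020) and cDC2 (-1.79, 0.018). Cebpb, a transcription factor of myeloid cells, fell in pDC (-2.11, 9.45e-05), mature DC (-2.30, 0.0037) and cDC2 (-1.67, 0.0066). The cDC2 of D0 B lay largely in a cluster of their own, as given above for Flt3. In pDC and mature DC the steady state is D0 B alone, and without D0 B the change of Socs1 was 7.92 in cDC2 (adjusted p = 0.52) and -1.01 in macrophages (0.32), that of Cebpb in cDC2 was -1.02 (0.37), and that of Kitl in cDC1, below, was 1.01 (0.69). Bcl2l1, a survival gene downstream of Stat5, rose in Kupffer cells (1.45, adjusted p = 0.048). Its change was 1.19 without D0 B (adjusted p = 0.11) and 11.17 without D0 A (0.16), where D0 B, with 0 UMIs in 25 cells, is the whole steady state. Cbl, a ubiquitin ligase of activated receptors, rose in pDC (2.00, adjusted p = 0.0011). Kit, the receptor of stem cell factor, rose in mature DC (2.14, 0.028), a call lost without D3 A (adjusted p = 0.051) or D5 B (0.052) and within protocol B (0.068), and its ligand Kitl in cDC1 (2.52, 0.025). Ccnd2, a cyclin, fell in BEC (-2.01, 0.043) and macrophages (-1.97, 0.038) and rose in cDC1 (1.25, 0.043), and Stat5a fell in BEC (-2.01, 0.043). Without D0 A the change of Ccnd2 in macrophages was 1.15 (adjusted p = 0.72), and the calls of Bcl2l1 in Kupffer cells, of Ccnd2 in BEC and cDC1 and of Stat5a in BEC were each lost without any 1 of 6 or more libraries.

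Recovery was read in STOP against D19 B, both of protocol B, with 1 library each and hence no test. Of 160 pairs of gene and class in 16 classes, 39 (24.4%) had intervals that did not overlap, 22 higher and 17 lower in STOP. Of the 133 of these pairs with a UMI in either library the 39 were 29.3%, and over all genes 13.5% of such pairs had intervals apart, 7.27% higher and 6.18% lower in STOP. Pairs with more UMIs have narrower intervals, and the shares were not matched for level. Csf1 in neutrophils was at 1415 CPM (1319 to 1517) in STOP, above each atlas library, against 547 CPM (483 to 618) in D19 B. It was also higher in LSEC (148 against 57.5 CPM), cDC1 (25.5 against 4.70), T cells (28.2 against 10.49) and Kupffer cells (24.7 against 7.82), and lower in BEC (51.6 against 80.8). Free RNA held 23.8 CPM of Csf1 in STOP and 12.4 CPM in D19 B. Csf3r in neutrophils was at 1164 CPM in STOP and 593 CPM in D19 B, and it was also higher in STOP in cDC1 (8.64 against 1.25) and BEC (7.15 against 1.47), with 10.3 and 7.46 CPM in free RNA. The neutrophils of STOP were 61.0% Retnlg-led and 39.0% Siglecf-led, and those of D19 B were 95.8% Siglecf-led. Within the Siglecf-led cluster, STOP and D19 B had Csf3r at 1067 and 619 CPM and Csf1 at 1501 and 577 CPM.

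In BEC, Csf2 was at 3.65 CPM in STOP (23 UMIs in 4 cells) against 25.5 CPM, and Il34 at 3.97 against 13.9 CPM, both lower with separate intervals. In the stellate and fibroblast class Il34 was higher in STOP, at 88.0 CPM (652 UMIs in 522 cells), than in D19 B, at 6.08 CPM with 1 UMI in 20 cells. Free RNA held 18.8 CPM of Csf2 in STOP, above BEC, and 22.4 CPM in D19 B. In T cells Csf2 was at 9.32 CPM in STOP (73 UMIs) against 3.05 CPM (27 UMIs), and in NK cells and ILC1 at 82.1 against 52.0 CPM. The T cell values lay below free RNA in both libraries. The 10 NK and ILC1 markers summed to 1404 CPM in T cells of STOP and 303 CPM in those of D19 B, and their part was not tested. Csf2rb was lower in STOP in pDC (192 against 277 CPM), cDC1 (142 against 176), cDC2 (114 against 187), macrophages (160 against 213), neutrophils (327 against 514) and LSEC (7.26 against 20.2), and higher in BEC (26.5 against 12.3). Free RNA held 22.9 CPM of Csf2rb in STOP and 42.3 CPM in D19 B, above LSEC of both libraries and above BEC of D19 B. Csf2rb2 in LSEC was at 17.998 CPM (13.8 to 23.1) in STOP, below the 77.8 CPM (65.7 to 91.5) of D19 B and above both D0 libraries. In large-vessel endothelial cells Csf2rb2 was also lower in STOP, at 16.7 CPM (10 UMIs) against 58.7 CPM (33 UMIs). Csf1r was higher in macrophages of STOP (943 against 774 CPM) and lower in cDC2 (81.9 against 267 CPM), T cells (2.68 against 5.98) and the stellate and fibroblast class (10.9 against 48.6). The stellate and fibroblast value of D19 B is 8 UMIs in 20 cells. Free RNA held 40.8 CPM of Csf1r in STOP and 107 CPM in D19 B, above T cells and the stellate and fibroblast class of both. Flt3 was lower in pDC (120 against 195 CPM), cDC2 (158 against 203), cDC1 (213 against 247) and the stellate and fibroblast class (9.85 against 42.6, with 7 UMIs in 20 cells of D19 B). It was higher in BEC (22.7 against 7.34) and in NK cells and ILC1 (3.34 against 0.272), with 34.1 and 32.3 CPM in free RNA of STOP and D19 B. Csf2ra was higher in BEC (45.7 against 34.4 CPM) and cDC2 (248 against 212) and lower in Kupffer cells (120 against 179). Free RNA held 51.5 CPM of Csf2ra in STOP and 67.1 CPM in D19 B, above BEC of both libraries.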

How the data were processed

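For each of 13 libraries the files deposited by the authors hold UMI counts, not normalized, of every gene in every barcode, and their processing notes name kallisto and GRCm38, without a filter on barcodes in the files used here. Cells are the barcodes that reached 1500 UMIs (Python 3.11.15, scanpy 1.11.5, igraph 0.11.9). Cells were clustered on 2000 variable genes and 40 principal components (25 neighbours, Leiden resolution 1.5), with the 10 genes and 44 pathway genes kept out. A cluster was named when at least 3 markers of a class were found in 10% of its cells and 2-fold over other cells, and the naming rules were revised after the clusters had been seen. Doublets were called (6.83% of cells) and kept, and their removal was an alternative.

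UMIs were summed per library and class (at least 20 cells) and tested with edgeR 4.0.16 (R 4.3.3, TMM scaling, filterByExpr, quasi-likelihood test, Benjamini-Hochberg adjustment per class) with stage and protocol as terms. STOP entered no test. The BEC test used 9 libraries with D0 A as the only steady-state library, and the stellate and fibroblast test 8 with D0 A. The pDC and mature DC tests used 8 and 9 with D0 B. On simulated counts for cDC1, DDC against steady state, 11335 genes, 12% of genes changed by 1 on the log2 scale and 73% of those changed by 2 were recovered, for pDC (9509 genes) 14% and 70%, and for BEC (15238 genes) 1% and 15%. Of the calls made there, 4.49% (cDC1), 13.4% (pDC) and 15.8% (BEC) were false. Levels in the text are CPM of the summed counts without TMM scaling, and a floor is 3 counts per library. The genes named are the 10 members, Csf2rb2, per class the 3 called pathway genes with the largest change, and the 3 genes most alike to each member among those that reach 50 CPM in a class, of which 1 is not reported here. Members, lists and tests were chosen with earlier results of these data known, and the motif after the promoters had been read. Alternatives were DESeq2 1.42.0, no filter on low counts, 3000 UMIs, 50 cells, doublet calls removed, each protocol alone and each library left out, and, added after the data had been seen, the sum of Csf2rb and Csf2rb2.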

Additional observations from a re-analysis of the deposited data

Results flagged for a closer look

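In 9 of 60 groups of 4 to 10 libraries, 1 library stood apart from the others of its gene, class and stage by Dixon's criterion, which chance alone meets in about 5% of groups. Csf1 was highest in D9 A among the progression neutrophils (836 CPM, the others 516 to 624) and lowest in D25 A among the progression stellate and fibroblast libraries (88.1 CPM from 94 cells, the others 164 to 193). Csf2 in BEC was at 81.3 CPM in D19 A, from 77 UMIs in 73 cells, where the other progression libraries lay between 1.95 and 25.5 CPM. Csf3 in BEC was at 18.5 CPM in D25 B, with the others between 0.537 and 5.85 CPM. Csf1r in macrophages was lowest at onset in D3 A (676 CPM, the others 741 to 753). Csf2ra stood highest in macrophages of D25 B (319.5 CPM, the others 228 to 261) and in cDC1 of D25 A (214 CPM from 31 cells, the others 154 to 173). Csf2rb in LSEC at onset was highest in D5 B (10.54 CPM, the others 2.36 to 3.32), and Csf2rb2 in macrophages during progression was highest in D25 A (78.8 CPM, the others 56.9 to 62.7).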

How the results depend on the processing

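The 4 calls of the 10 genes for DDC against steady state became 15 with no filter on low counts, 9 with at least 50 cells, 0 within protocol A and 2 to 10 when 1 library was left out (10 without D0 A, 2 without D0 B). The 0 calls for progression against onset became 2 with DESeq2, 10 with no filter on low counts, 2 within protocol A and 0 to 2 when 1 library was left out (2 without D5 B, 1 without D9 A). The class with the highest thinned share of cells with a UMI, pooled over libraries, was also the highest unthinned for 5 of 10 genes. By the mean over libraries the highest thinned share of Csf1r moved to macrophages (63.1% against 62.9% in Kupffer cells) and that of Flt3l to gamma delta T17 cells (2.36% against 2.10% in NK cells and ILC1). Log2 fold changes turned sign for Flt3l in T cells (0.15 at 3000 UMIs), Csf1r in macrophages (0.10 with no filter on low counts, 0.0017 at 3000 UMIs and 0.35 within protocol B), Csf2ra in neutrophils (0.24 at 3000 UMIs), Socs1 in cDC2 (6.71 within protocol A) and Ccnd2 in macrophages (1.11 within protocol B). With 1 library left out they ranged from -3.64 to 1.46 for Csf2 in T cells, -1.65 to 0.36 for Flt3l in T cells, -0.21 to 0.40 for Csf1r in macrophages, -2.24 to 7.92 for Socs1 in cDC2 and -2.54 to 1.15 for Ccnd2 in macrophages, and the cause was not tested. Of the results for single genes and classes with 1 library left out, 331 kept direction and side of the threshold, 58 lost the call, 11 gained one and 5 turned sign. No paired analysis was possible because the labels carry no replicate numbers, and the protocol that tells apart the libraries of a day is a term of each test. Few steady-state libraries limit every contrast with D0, and the BEC, pDC, mature DC and stellate and fibroblast tests rest on 1 such library. Low counts limit Csf3, Flt3l and Csf2.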

Other observations

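An unnamed cluster of 105 atlas cells led by Mcpt8 and Cpa3, genes of basophils and mast cells, held 463 UMIs of Csf1, at 198 and 905 CPM in the 2 libraries with at least 20 of its cells, and it entered no comparison. Of the 121 cells of this cluster in all 13 libraries, 44.6% were doublet calls.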
